A study of Saccharomyces cerevisiae with 72 samples.

Results

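The enzymes that make and break down arginine in budding yeast were followed in cells exposed to methyl methanesulfonate (MMS), a DNA alkylating agent. They were chosen by gene symbol, as ARG2, ARG5,6, ARG8, CPA1, ARG3, ARG1 and ARG4 for synthesis and CAR1 and CAR2 for breakdown. Of these 9 genes, 8 had a named row in both value tables, among 5594 genes in one table and 5592 in the other. ARG5,6 had none and was not analysed here.

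Each of the 72 arrays compared MMS-treated with untreated cells of one BY4741 strain, which came from a single culture split before a further 1 h with or without MMS. The growth text gives 0.03% MMS for all strains, and the treatment text of the kinase strains gives 0.033%. The growth medium is not named, so the supply of arginine to the cells is not known. Every value below is log2 of MMS over untreated within a strain, so a value of 1 is a 2-fold higher transcript level after MMS. Nothing in it shows the starting level in the untreated strain, and fewer transcripts per cell cannot be told apart from fewer cells that make them.

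The first table, called the kinase set, holds poly(A)-enriched RNA of 13 strains: wild type, the single deletions sml1, tel1, chk1, ste11, crt1, mec1, dun1 and rad53, and the double deletions chk1dun1, chk1rad53, dun1rad53 and tel1mec1. Mec1 and Tel1 are the sensor kinases of the DNA damage checkpoint, Rad53 and Chk1 the kinases they activate, and Dun1 acts after Rad53. Of the other deleted genes, SML1 encodes an inhibitor of ribonucleotide reductase, CRT1 (also named RFX1) a repressor of ribonucleotide reductase genes and STE11 a signalling kinase of the mating response. The second table, called the factor set, holds total RNA of 5 strains and no wild type. Each lacks 1 transcription factor: hap1, hap4, sut1, yap7, or rcs1, whose deleted gene is also named AFT1. Each strain had 2 replicates of 2 arrays with opposite dyes, and the 2 arrays were averaged, so that errors are the SD of n = 2. The labels do not say whether mec1 and rad53 strains also lack SML1, whether a strain was 1 clone, or whether replicates were separate cultures, and p-values measure only the spread between these samples.

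Arginine is made from glutamate. An acetylated branch in the mitochondrion, begun by acetylglutamate synthase (Arg2) and continued by Arg5,6, Arg8 and Arg7, yields ornithine, which Ort1 carries to the cytosol. Ornithine carbamoyltransferase (Arg3) joins it with carbamoyl phosphate, made by the synthetase whose small subunit is Cpa1, and argininosuccinate synthetase (Arg1) and lyase (Arg4) finish arginine. Arginase (Car1) and ornithine aminotransferase (Car2) take arginine and ornithine apart when arginine serves as a nitrogen source. The synthesis genes are known targets of the general amino acid control activator Gcn4, and the ArgR/Mcm1 complex represses synthesis genes and activates breakdown genes when arginine is plentiful.

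In wild type, 5 of the 6 synthesis genes measured rose after MMS and both breakdown genes fell slightly. These 7 of 8 genes, with 5 higher and 2 lower, passed limma's test at a Benjamini-Hochberg adjusted p under 0.05 over all genes, while 52.1% of all genes passed it in this strain, 26.8% higher and 25.4% lower. The argininosuccinate synthetase gene ARG1 read 3.48 and 1.88 on the arrays of replicate 1 and 3.22 and 2.91 on those of replicate 2. All 4 arrays were far above 0, and ARG1 had the 9th highest mean of all genes at 2.87 ± 0.27 (SD, n = 2), a 7.32-fold higher level (limma adjusted p = 0.000131).

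The ornithine carbamoyltransferase gene ARG3 read 2.21 and 1.98 in replicate 1 and 2.63 and 2.26 in replicate 2. Its mean of 2.27 ± 0.25 (SD, n = 2) was the 17th highest and came to 4.82-fold (limma adjusted p = 2.75e-05). For ARG4, which encodes argininosuccinate lyase, the arrays read 1.50, 1.80, 1.61 and 1.67, the tightest of the set, with a mean of 1.65 ± 0.01 (SD, n = 2) and the 48th highest place. The last steps of the pathway therefore carried the 3 highest values among the members in wild type.

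CPA1 rose less. Its arrays read 0.84 and 1.30 in replicate 1 and 0.62 and 0.41 in replicate 2, giving 0.80 ± 0.39 (SD, n = 2; limma adjusted p = 0.0054). The entry enzyme of the acetylated branch, ARG2, moved by a small amount, 0.24 ± 0.12 (SD, n = 2; limma adjusted p = 0.0309), and 1 of its 4 arrays lay below 0 at -0.10. ARG8, the acetylornithine aminotransferase gene, stood at -0.08 ± 0.12 (SD, n = 2; limma adjusted p = 0.481) and did not pass the test. The calls of ARG1, ARG3 and ARG4 held without either wild-type replicate, while that of CPA1 ended without replicate 1 (0.52, limma adjusted p = 0.187) and that of ARG2 without replicate 2 (0.15, limma adjusted p = 0.36). Within the synthesis pathway the values in wild type spanned from -0.08 to 2.87.

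Of the breakdown genes, CAR1 stood at -0.30 ± 0.24 and CAR2 at -0.36 ± 0.02 (SD, n = 2; limma adjusted p = 0.0421 and 0.00529). The CAR1 call ended without replicate 1 (-0.13, limma adjusted p = 0.545) and the CAR2 call without replicate 2 (-0.34, limma adjusted p = 0.0698). The values also differed between the dyes. With MMS in Cy3 the arrays of replicates 1 and 2 read -0.97 and -0.43 for CAR1 and -1.19 and -0.35 for CAR2. With MMS in Cy5 they read 0.04 and 0.17 for CAR1 and 0.50 and -0.39 for CAR2, so the strain mean over these arrays alone turned to 0.11 and 0.055. Over all 26 replicates of the kinase set, the array with MMS in Cy5 was the higher one in 18 for CAR1 and in 19 for CAR2, by 0.23 and 0.26 on average (log2 scale). ARG1 had a larger mean gap in the same direction, 0.50, beside responses several times as large.

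**Figure D1:**
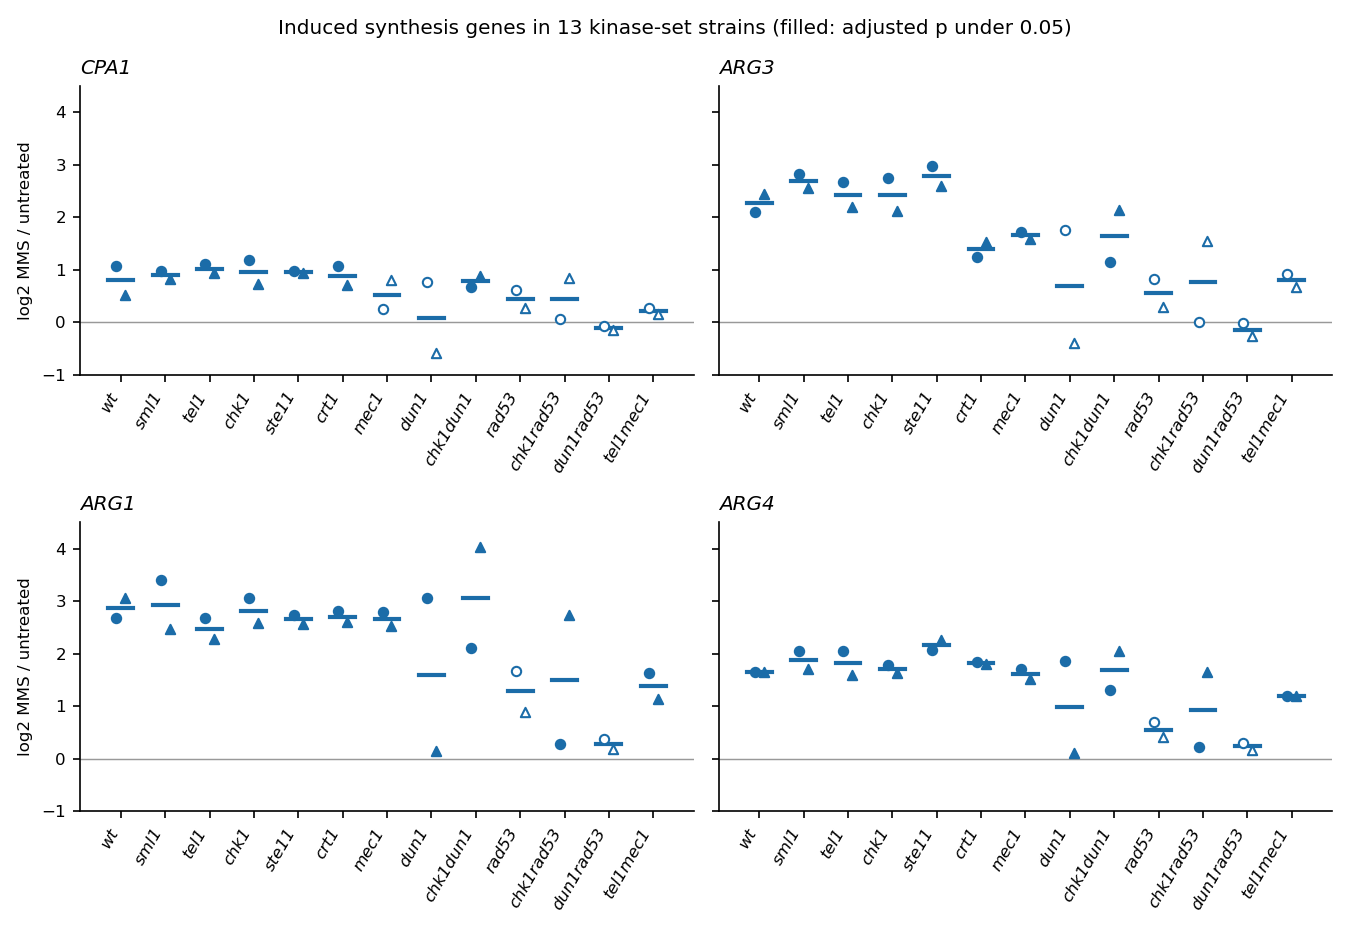
Log2 MMS over untreated (vertical axis) of CPA1, ARG3, ARG1 and ARG4 in the 13 strains of the kinase set. Circles are replicate 1, triangles replicate 2, bars their mean, and filled symbols mark strains where limma's adjusted p was under 0.05; dun1rad53 sits near 0 for all 4 genes, and the replicates of dun1, chk1dun1 and chk1rad53 lie far apart for ARG1.

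ARG1, ARG3 and ARG4 were called higher in every strain of the kinase set that kept RAD53 together with MEC1 or TEL1, except ARG3 in dun1. The dun1 calls of ARG1 and ARG4 ended without its replicate 1. These calls were not limited to such strains, since ARG1 and ARG4 were also called higher in chk1rad53 (1.50 and 0.93) and tel1mec1 (1.38 and 1.20). The deletions sml1, tel1, chk1 and ste11 gave ARG1 means of 2.94, 2.47, 2.82 and 2.65, ARG3 means of 2.69, 2.43, 2.43 and 2.78, and ARG4 means of 1.88, 1.83, 1.70 and 2.17. All 12 values were called higher, and no member differed from wild type in these 4 strains at an adjusted p under 0.05. Among all genes, 0% differed in sml1, tel1 and ste11 and 0.0179% in chk1. The intervals are wide for ARG1: its difference from wild type in sml1 was 0.06, with a 95% interval from -1.46 to 1.59.

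Counts of members called were read against the share of all genes called in the same strain. The number of members higher and lower was 5 and 1 in sml1 (52.1% of genes called either way), 5 and 0 in tel1 (47.6%), 4 and 0 in chk1 (49.4%), 5 and 1 in ste11 (51.5%) and 5 and 1 in crt1 (50.6%). It was 4 and 0 in mec1 (43.9%), 3 and 0 in dun1 (39.9%) and 5 and 0 in chk1dun1 (38.8%). In rad53 it was 0 and 2 (35.4% either way, 19.1% higher and 16.4% lower) and in dun1rad53 0 and 1 (34.3%, with 19% higher and 15.3% lower). In chk1rad53 it was 2 and 1 (20.1%) and in tel1mec1 2 and 1 (32%). Over the 13 strains, ARG1 and ARG4 were called higher in 11, ARG3 and ARG2 in 8, CPA1 in 7 and ARG8 in 0, while CAR2 was called lower in 8 and CAR1 in 2.

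In the rad53 strain none of the synthesis genes was called. The rad53 arrays read 1.47 and 1.86 for ARG1 in replicate 1 and 0.55 and 1.23 in replicate 2. All 4 lay above 0, and their mean of 1.28 ± 0.55 (SD, n = 2) was not called by limma (adjusted p = 0.0608). That mean was still the 27th highest of all genes in rad53, a 2.43-fold higher level. The fit shares a spread over strains per gene, which for ARG1 includes the distant replicates of dun1, chk1dun1 and chk1rad53 given below. The missing call therefore does not show that the ARG1 response was lost. ARG3 read 0.94, 0.71, 0.20 and 0.37, with a mean of 0.55 ± 0.38, and ARG4 had a mean of 0.55 ± 0.21 (SD, n = 2). For these 3 genes both rad53 replicates lay below both wild-type replicates. With 2 replicates per strain such separation was common. It held, in either direction, for 5 members in rad53, and for 4 each in sml1, ste11 and crt1, where no member was called against wild type. The share over all genes was not computed.

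The difference from wild type was -1.71 for ARG3 (95% interval -2.76 to -0.67, limma adjusted p = 0.019), the only synthesis gene called. ARG1 differed by -1.59 (-3.12 to -0.07, limma adjusted p = 0.129) and ARG4 by -1.09 (-1.94 to -0.25, limma adjusted p = 0.0589), neither past the threshold. CAR2 was called as well, at -0.40 (limma adjusted p = 0.0445). It lay at -0.76 ± 0.12 in rad53 (SD, n = 2) against -0.36 ± 0.02 in wild type. These 2 of 8 members stand beside 21.1% of all genes that differed between rad53 and wild type. The ARG3 call ended without rad53 replicate 2 or wild-type replicate 2 (limma adjusted p = 0.152 and 0.122), with either dye alone, and when arrays were scaled to one spread (-1.19, limma adjusted p = 0.151). The CAR2 call was lost in 11 of 20 alternatives, among them leaving out any 1 replicate of either strain, and with MMS in Cy3 alone the difference was -0.073.

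In the strain without DUN1 and RAD53 the values of the late synthesis genes lay close to 0. ARG1 read 0.49, 0.24, 0.55 and -0.20 on its arrays, ARG3 0.17, -0.19, 0.09 and -0.63, and ARG4 0.47, 0.14, 0.42 and -0.09. None of the 6 synthesis genes passed limma's test in this strain, and their means ran from -0.14 for ARG3 to 0.27 for ARG1. CAR2 was the only member called, at -0.64 ± 0.08 (SD, n = 2; limma adjusted p = 5.79e-05), and this call was lost with MMS in Cy5 alone.

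Against wild type, dun1rad53 differed by -2.60 for ARG1 (95% interval -4.13 to -1.07, limma adjusted p = 0.0199), -2.41 for ARG3 (-3.46 to -1.37, limma adjusted p = 0.00273) and -1.41 for ARG4 (-2.25 to -0.57, limma adjusted p = 0.0216). In this contrast 3 of 8 members and 16.1% of all genes were called. ARG1 had the 3rd largest and ARG3 the 6th largest difference of all genes. CPA1, at -0.91 (-1.56 to -0.25, limma adjusted p = 0.0535), just missed the threshold. The call for ARG3 held in all 20 alternatives tried. Those for ARG1 and ARG4 were lost in 6 each, including without either dun1rad53 replicate, without wild-type replicate 2 and after scaling arrays to one spread (-1.95 and -1.01, limma adjusted p = 0.109 and 0.134). ARG4 was also lost without wild-type replicate 1.

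Removing DUN1 on top of RAD53 gave no call. ARG1 was lower by -1.01 in dun1rad53 than in rad53 (95% interval -2.53 to 0.52), ARG3 by -0.70 (-1.74 to 0.34) and ARG4 by -0.32 (-1.16 to 0.53). Among all genes, 0% were called in this contrast. A further fall of more than 2-fold lies inside the interval of ARG1.

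**Figure D2:**
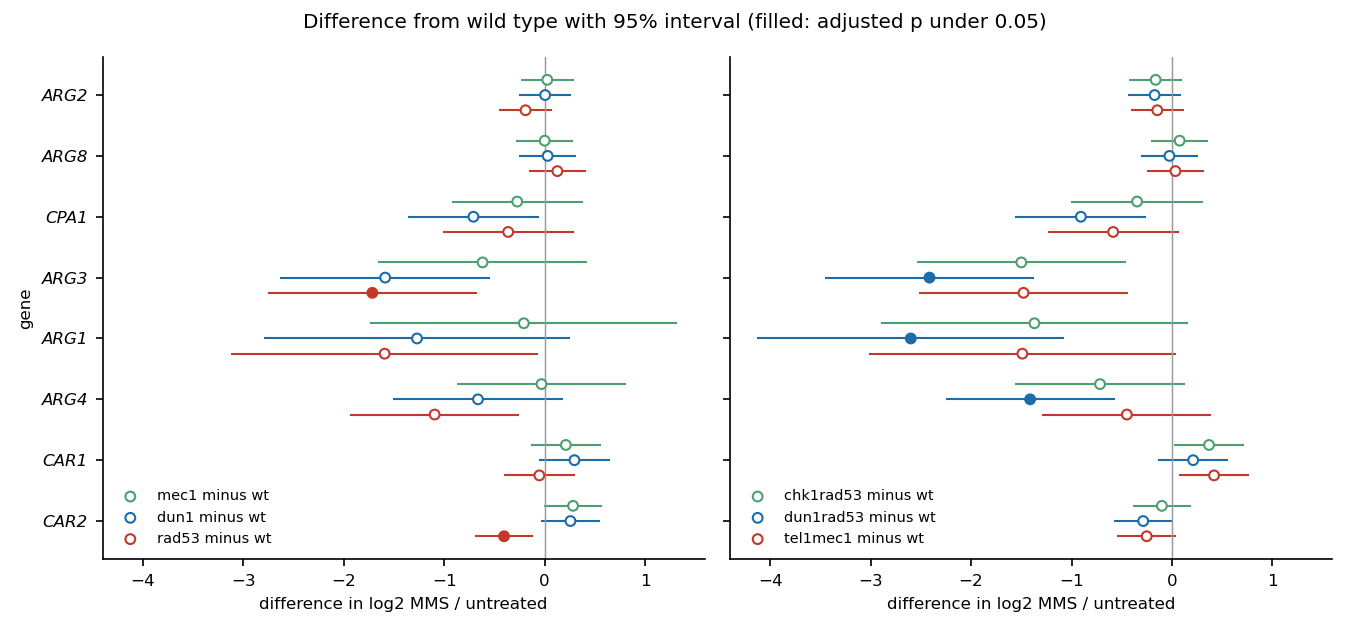
Difference from wild type in log2 MMS over untreated (horizontal axis) for the 8 genes in mec1, dun1, rad53 (left) and chk1rad53, dun1rad53, tel1mec1 (right). Points are the fitted differences, lines their 95% intervals and filled points an adjusted p under 0.05; ARG3 is below 0 in all 6 strains and filled in rad53 and dun1rad53, and ARG1 has the widest intervals.

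Without MEC1 the late synthesis genes still rose. In mec1, ARG1 stood at 2.66 ± 0.18, ARG4 at 1.61 ± 0.14 and ARG3 at 1.65 ± 0.08 (SD, n = 2), all called. Single arrays varied more, from 1.39 to 3.68 for ARG1, 0.95 to 2.08 for ARG4 and 0.90 to 2.29 for ARG3. The 2 dyes of mec1 replicate 2 differed by 2.28 for ARG1, the largest such gap of that gene in the kinase set. No member differed from wild type in mec1, where 1.56% of all genes did. The ARG3 replicates of mec1, 1.71 and 1.59, lay below those of wild type, and the difference was -0.62 (95% interval -1.66 to 0.42).

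In tel1mec1, ARG1 stood at 1.38 ± 0.36, ARG3 at 0.79 ± 0.16 and ARG4 at 1.20 ± 0.00 (SD, n = 2). Of these, ARG1 and ARG4 were still called higher than 0 and ARG3 was not (limma adjusted p = 0.0471, 0.00364 and 0.0922). The ARG1 call was lost in 7 of 13 alternatives, including without either replicate, with either dye alone and with the replicate block (limma adjusted p = 0.0525), and the ARG4 call without either replicate (limma adjusted p = 0.0734 and 0.0529). Neither replicate of any of the 3 reached a wild-type replicate, but no member was called against wild type (12.9% of genes were), ARG3 coming nearest at -1.48 (95% interval -2.52 to -0.44, limma adjusted p = 0.0564). Within the only slide that held both strains, 1 array each with opposite dyes, tel1mec1 was lower by -1.63 for ARG3, -1.48 for ARG1 and -0.45 for ARG4. An sml1 array on that slide, with the same dye as wild type, differed from it by -0.02, -0.69 and -0.08 for these genes.

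The sensor kinase strains were also compared with each other. Against tel1, tel1mec1 was lower for ARG3 by -1.64 (limma adjusted p = 0.0449) and for CAR2 by -0.50 (limma adjusted p = 0.0294), with 9.49% of genes called. Against mec1 only CAR2 was called, at -0.53 (limma adjusted p = 0.0484; 2.38% of genes called). The calls against tel1 were lost in 8 of 16 alternatives each and that against mec1 in 12 of 16, among them, for all 3, leaving out either tel1mec1 replicate and using either dye alone. CAR2 was also the only member that differed between mec1 and rad53, by 0.69 (limma adjusted p = 0.00808; 8.74% of genes called), since it stayed at -0.07 ± 0.07 in mec1 (SD, n = 2). This call was lost in 5 of 16 alternatives, among them without mec1 replicate 1 or rad53 replicate 2 and with either dye alone. ARG3 and ARG4 were higher in mec1 than in rad53 by 1.10 and 1.06 without passing (limma adjusted p = 0.195 and 0.114).

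In dun1, chk1rad53 and chk1dun1 the replicates lay far apart on the arginine genes, and both dyes of a replicate took the same side. In dun1, ARG1 read 3.71 and 2.41 in replicate 1 but 0.13 and 0.15 in replicate 2. ARG3 read 2.30 and 1.22 against -0.77 and -0.02, ARG4 2.25 and 1.46 against 0.07 and 0.16, and CPA1 0.91 and 0.60 against -0.41 and -0.76. Replicate 1 was high for all 4 genes, and replicate 2 lay near or below 0.

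In chk1rad53 the order was the other way round. ARG1 read 0.50 and 0.05 in replicate 1 and 2.68 and 2.78 in replicate 2, ARG3 0.14 and -0.16 against 1.56 and 1.53, and ARG4 0.43 and 0.01 against 1.58 and 1.71. In chk1dun1 both replicates were high but apart, with ARG1 at 2.13 and 2.08 against 4.32 and 3.75 and ARG3 at 1.24 and 1.06 against 2.35 and 1.93.

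The gap between the replicates of ARG1 was the largest of all 5594 genes in each of these 3 strains, at 2.92 in dun1, -1.93 in chk1dun1 and -2.45 in chk1rad53 (replicate 1 minus replicate 2, log2 scale). ARG3 had the 3rd, 2nd and 4th largest gap and ARG4 the 5th, 4th and 7th. The gaps of ARG7, which encodes the ornithine acetyltransferase and is no member, came 8th, 31st and 6th. The gap of CPA1 came 14th, 470th and 59th. Those of the other members were smaller, the foremost being ARG8 in place 191 in chk1dun1 and CAR2 in place 329 in dun1, and ARG2 and CAR1 lay at 622 or further down in each strain. Over the whole kinase set, ARG1 had the largest pooled SD between replicates of all genes, 0.892, ARG3 the 6th largest, 0.605, and ARG4 the 17th, 0.486, where the median gene had 0.134. In the factor set, the SD of ARG1 was 0.187, in place 491 of 5592.

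**Figure D3:**
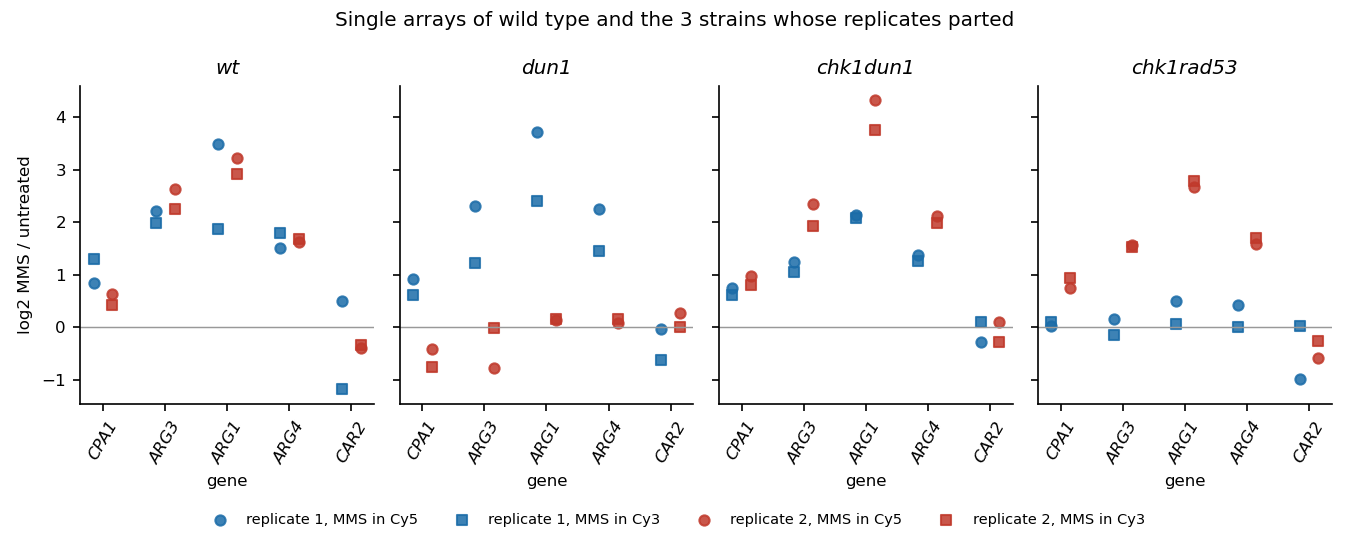
Log2 MMS over untreated (vertical axis) of CPA1, ARG3, ARG1, ARG4 and CAR2 on single arrays of wild type, dun1, chk1dun1 and chk1rad53. Blue is replicate 1 and red replicate 2, circles have MMS in Cy5 and squares in Cy3; in dun1 the red ARG1 points lie at 0.13 and 0.15 and the blue ones at 2.41 and 3.71, and chk1rad53 has the reverse.

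Means over such replicates describe neither of them. ARG1 was called in dun1 at 1.60 ± 2.06 (SD, n = 2; limma adjusted p = 0.0187) and in chk1rad53 at 1.50 ± 1.73 (limma adjusted p = 0.0455), because the fit shares one spread over 13 strains per gene. Left with dun1 replicate 2 alone the ARG1 value was 0.14 (limma adjusted p = 0.881), and with replicate 1 alone 3.06 (limma adjusted p = 0.000884). Left with chk1rad53 replicate 1 alone it was 0.28 (limma adjusted p = 0.917), and with replicate 2 alone 2.73 (limma adjusted p = 0.00575). The array of dun1 replicate 2 with MMS in Cy5 went against its label, with 2.71 for DUN1 and -2.34 for MEC1, while its partner with MMS in Cy3 read -0.11 and -0.25. Without that array ARG1 in dun1 was 1.61, since the partner had the same low value. In chk1rad53 replicate 1, the array with MMS in Cy3 had the smallest SD over genes of the 52 arrays, 0.197 against a median of 0.469. Their part in the split was not tested beyond these values.

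Against wild type, neither dun1 (0.59% of genes called), chk1dun1 (0.518%) nor chk1rad53 (14%) had a member called. ARG3 was lower by -1.59 in dun1 (95% interval -2.63 to -0.55, limma adjusted p = 0.18) and by -1.50 in chk1rad53 (-2.54 to -0.46, limma adjusted p = 0.0505), with both replicates below wild type in each strain. Within the slide that dun1 replicate 2 shared with an array of wild type, the dun1 arrays were lower by -2.77 for ARG1, -2.65 for ARG3 and -1.56 for ARG4. These are means of both dun1 arrays, including the one that went against its label, against 1 wild-type array. Without it, an alternative chosen after seeing the data, both arrays had MMS in Cy3 and the values were -2.76, -2.28 and -1.51. An sml1 array on that slide, also with MMS in Cy3, differed from wild type by -0.51 for ARG1, 0.23 for ARG3 and 0.20 for ARG4. No slide held wild type together with rad53, dun1rad53 or chk1rad53, so no within-slide value exists for them.

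In the direct contrasts, chk1rad53 was lower than chk1 for ARG3 by -1.66 (limma adjusted p = 0.0388; 10.5% of genes called). That call rested on chk1rad53 replicate 1, without which the difference was -0.88 (limma adjusted p = 0.415), and it also ended without either chk1 replicate. CAR2 was lower in dun1rad53 than in dun1 by -0.54 (limma adjusted p = 0.0434; 2.43% of genes called), and without the dun1 array that went against its label by -0.47 (limma adjusted p = 0.0507). It was lost in 10 of 16 alternatives, among them leaving out either dun1rad53 replicate or dun1 replicate 2 and using either dye alone. No member was called for chk1rad53 against rad53 (0% of genes), for chk1dun1 against dun1 (0%) or for chk1dun1 against chk1 (0.751%).

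In crt1 the value of ARG3 lay further below that of ARG1 than in wild type. ARG1 stood at 2.70 ± 0.14 and ARG4 at 1.82 ± 0.03 in crt1, whereas ARG3 read 1.02, 1.46, 1.63 and 1.42, a mean of 1.38 ± 0.20 (SD, n = 2). Both ARG3 replicates, 1.24 and 1.53, lay below the wild-type replicates of 2.09 and 2.45, but the difference of -0.89 (95% interval -1.93 to 0.16) was not called (limma adjusted p = 0.653; 0.268% of genes called). The ARG3 value minus that of ARG1 was -1.32 ± 0.34 in crt1 and -0.60 ± 0.03 in wild type (SD, n = 2). It was also low in chk1dun1, -1.42 ± 0.66, and mec1, -1.01 ± 0.10, and highest in ste11, 0.13 ± 0.16.

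Pooling strains by genotype gave more precise differences. The mean of rad53, chk1rad53, dun1rad53 and tel1mec1, which lack RAD53 or both sensor kinases, was set against that of wild type, sml1, tel1, chk1 and ste11. ARG3 was 0.49 in the first group and 2.52 in the second, a difference of -2.03 (95% interval -2.52 to -1.53, limma adjusted p = 9.34e-07). It was the only member whose replicates did not overlap between the groups, and the share of all genes that did so was not computed. Strains left out of both groups could overlap the first. In crt1, ARG3 was 1.24 and 1.53 in its replicates, below chk1rad53 replicate 2 at 1.55. ARG1 differed by -1.64 (limma adjusted p = 0.000634), ARG4 by -1.12 (limma adjusted p = 8.29e-05), CPA1 by -0.68 (limma adjusted p = 0.000854) and ARG2 by -0.20 (limma adjusted p = 0.00867).

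CAR2 was also lower in the 4 strains, by -0.39 (limma adjusted p = 8.42e-05), with means of -0.62 and -0.23. The CAR2 call was lost with MMS in Cy3 alone. That of ARG2 was lost with MMS in Cy5 alone and when arrays were scaled to one spread. ARG8 (-0.10, 95% interval -0.23 to 0.03) and CAR1 (0.11, -0.05 to 0.28) were not called. With 6 of 8 members lower, the count stands beside 24.8% of all genes lower, 25.1% higher and 49.9% in either direction. Leaving out any 1 replicate left ARG3 between -2.22 and -1.83 and ARG1 between -1.95 and -1.33, and scaling arrays to one spread moved them to -1.62 and -1.06, with ARG4 at -0.72. The grouping was made with earlier results of these data known, and chk1rad53 replicate 2, whose ARG1 value was 2.73, sits in the first group.

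**Figure D4:**
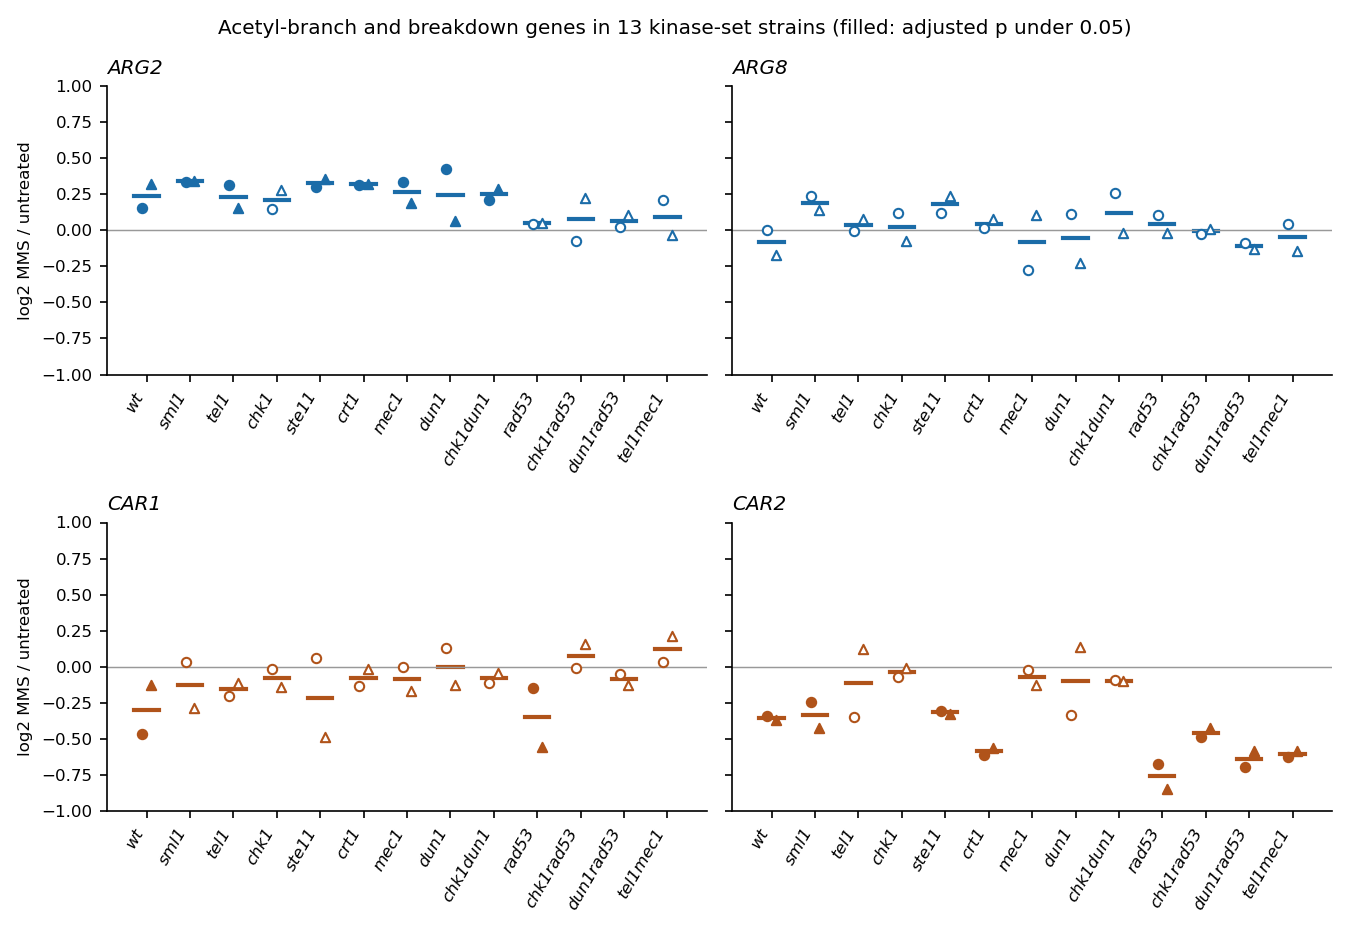
Log2 MMS over untreated (vertical axis, narrower range than for the induced genes) of ARG2, ARG8, CAR1 and CAR2 in the 13 strains of the kinase set. Circles are replicate 1, triangles replicate 2, bars their mean, and filled symbols an adjusted p under 0.05; CAR2 is lowest in rad53 at -0.76, and ARG8 has no filled symbol.

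Ordered by level, few neighbouring strains separated. Among the 12 neighbouring pairs of each gene, replicates did not overlap in 3 pairs for ARG3, 4 for ARG4, 2 for CAR2 and 1 for ARG1. The count was 0 for ARG2, ARG8, CPA1 and CAR1. The same counts over all genes were not computed, so these do not set the members apart from other genes. For ARG1 the only clean step was between rad53 at 1.28 and dun1rad53 at 0.27, the lowest strain. CAR2 was lowest in rad53 (-0.76), dun1rad53 (-0.64), tel1mec1 (-0.61) and crt1 (-0.59), and highest in chk1 (-0.04) and mec1 (-0.07). CAR1 ran from -0.35 in rad53 to 0.12 in tel1mec1 and did not follow CAR2, with Pearson's r of 0.106 and Spearman's rho of 0.115 over the 13 strain means. Among synthesis genes, the highest r were 0.922 (rho 0.687) for ARG1 with ARG4, 0.918 (rho 0.923) for ARG3 with ARG4 and 0.902 (rho 0.89) for CPA1 with ARG3. The lowest was 0.527 (rho 0.429) for ARG8 with ARG1. CAR2 with synthesis genes ran from r = 0.124 (rho 0.0989) for ARG8 to 0.614 (rho 0.61) for ARG1. CAR1 with synthesis genes ran from r = -0.383 for CPA1 to -0.129 for ARG4. These points share strains, arrays and the replicate splits above, and are given as a description.

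The late synthesis genes rose in all 5 strains of the factor set. ARG1 ran from 1.86 in hap4 to 2.56 in rcs1, ARG3 from 1.63 in sut1 to 2.10 in hap4, ARG4 from 1.42 to 1.59 and CPA1 from 0.51 to 0.92, each called in 5 of 5 strains. The members called higher and lower were 5 and 0 in hap1 (57.1% of genes called), 6 and 2 in hap4 (55.5%), 5 and 2 in sut1 (47.2%), 4 and 0 in rcs1 (56.9%) and 4 and 2 in yap7 (55.6%). Of these strains, ARG8 passed the test in hap4 only, at 0.22 ± 0.08 (SD, n = 2; limma adjusted p = 0.0106). That call ended without hap4 replicate 2 and with MMS in Cy5 alone. Over the factor set, ARG8 averaged -0.05 with MMS in Cy5 and 0.15 with MMS in Cy3.

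CAR1 and CAR2 were called lower in the same 3 of these strains. CAR1 stood at -0.35 in hap4, -0.36 in sut1 and -0.36 in yap7, all called lower, but at 0.02 ± 0.03 in hap1 and -0.07 ± 0.00 in rcs1 (SD, n = 2). CAR2 fell in the same 3 strains, by 0.45, 0.38 and 0.50, and read -0.19 in hap1 and -0.02 in rcs1. All 6 of these calls ended with MMS in Cy5 alone, and CAR2 also ended without replicate 2 in hap4 and in sut1. Against the mean of the other 4 strains, CAR1 in hap1 was higher by 0.30 (95% interval 0.18 to 0.43, limma adjusted p = 0.0285), the only one of 40 differences called, with 1.61% of genes called for hap1. That call was lost in 13 of 18 alternatives. ARG1 in hap4 was lower than elsewhere by -0.52 (-0.79 to -0.26) without passing (limma adjusted p = 0.0547). No member was called in hap4 (2.38% of genes), sut1 (0.268%), rcs1 (0.268%) or yap7 (0.0536%). Here too CAR1 read higher with MMS in Cy5, in 9 of 10 replicates and by 0.47 on average.

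**Figure D5:**
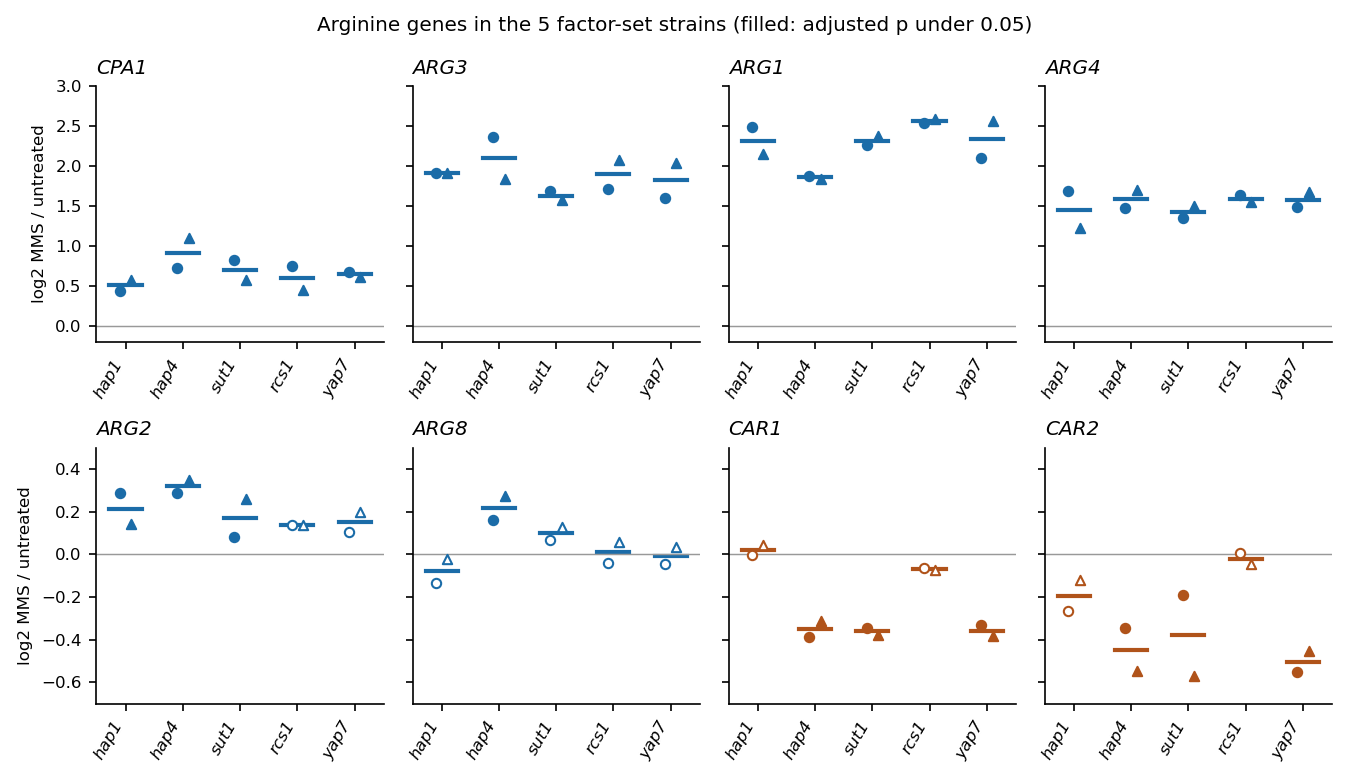
Log2 MMS over untreated (vertical axis, with a narrower range in the lower row) of the 8 genes in the 5 strains of the factor set. Circles are replicate 1, triangles replicate 2, bars their mean, and filled symbols an adjusted p under 0.05; the upper row is filled in every strain, and CAR1 lies near 0 in hap1 and rcs1.

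Both other synthesis genes with a named row were called higher in wild type. ARG7 stood at 1.51 ± 0.27 in wild type, 0.33 ± 0.36 in rad53 and 0.01 ± 0.06 in dun1rad53 (SD, n = 2), and it was called higher in 10 of 13 strains of the kinase set and 5 of 5 of the factor set. It was lower than in wild type by -1.17 in rad53 and -1.50 in dun1rad53 (limma adjusted p = 0.0323 and 0.0104). ORT1, the ornithine carrier, had 0.80 ± 0.03, 0.21 ± 0.18 and 0.06 ± 0.09 in the same strains (SD, n = 2), and its differences from wild type were not called.

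Of 6 regulators, 0 were called higher and 1 lower in wild type, where 52.1% of all genes were called. GCN4, whose product is controlled mainly at translation, stayed between -0.12 and 0.12 in the 13 strains and was called in 0. ARG80, which encodes a subunit of the ArgR/Mcm1 complex, was called lower in 9 of 13 strains and stood at -0.42 ± 0.04 in wild type and -0.34 ± 0.02 in dun1rad53 (SD, n = 2). ARG81, another subunit, ran from -0.19 to 0.05, with 1 call. UME6, a repressor that also acts on CAR1, was called lower in 4 of 13 strains and was higher in the pooled comparison by 0.18 (limma adjusted p = 0.0277).

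The counts of neighbouring lists in wild type are to be read against 26.8% of all genes called higher and 25.4% lower. Of 4 genes of glutamate supply, 3 were called lower in wild type. GLT1, glutamate synthase, was lower in 13 of 13 strains, from -1.08 in rad53 to -0.49 in crt1, and GDH1, glutamate dehydrogenase, in 12 of 13, with tel1mec1 as the exception. Among 27 other amino acid synthesis genes known as Gcn4 targets, 11 were higher and 5 lower in wild type, with a median of 0.28 where that of all genes was near 0. In rad53 these were 2 and 5, with a median of 0.02, beside 19.1% of all genes higher and 16.4% lower. LYS1, saccharopine dehydrogenase, had the highest value of that list in wild type, 1.18 ± 0.43 (SD, n = 2). Of 6 arginine transport genes, the plasma membrane permease CAN1 was the 1 called higher in wild type, at 0.36 ± 0.10 (SD, n = 2), while YPQ1, a vacuolar transporter of basic amino acids, was called lower at -0.46 ± 0.08 (SD, n = 2) and in 5 of 13 strains. CAN1 was called in 9 of 13 strains, none of them among the 4 that lack RAD53 or both sensor kinases.

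Carbamoyl phosphate also feeds pyrimidine synthesis, and most of those genes fell in wild type. Of 7 pyrimidine genes, 6 were lower and 1 higher in wild type, against 25.4% and 26.8% of all genes, with a median of -0.65. URA1, dihydroorotate dehydrogenase, stood at -1.91 ± 0.41 and URA2, which holds the pathway's own carbamoyl phosphate synthetase, at -0.95 ± 0.24 (SD, n = 2). Polyamine genes, which draw on ornithine, were lower in 3 of 4 cases, SPE3 most at -0.50 ± 0.06 (SD, n = 2). Of 5 genes listed for proline and urea use (PRO3, PUT1, PUT2, PUT3 and DUR3), 1 was called in wild type, PRO3 lower.

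The genes most like the synthesis members over the 13 kinase-set strain means were found by Pearson's r with the mean of the standardised values of the 6 synthesis genes, among 1816 genes whose strain means spanned at least 0.5. They were PXP2 (r = 0.97), ATG41 (0.951), ARG7 (0.941), YIL165C (0.939) and FMP23 (0.938). Each was lowest in dun1rad53, and ATG41 ran from 0.23 there to 1.86 in sml1. For the mean of CAR1 and CAR2 the nearest were YNR064C (r = 0.749), CUE4 (0.746), ATP6 (0.721), OSH2 (0.691) and WSC4 (0.678), a looser likeness. All of them share the same arrays with the members.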

How the data were processed

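The deposited values were normalized log2 ratios of Cy5 over Cy3, 1 per probe and array, made by the authors with limma per the submitters' processing notes. Base 2 was assumed; base, centring, limma version and background handling are not given in the sources used here. Spot signal is not known from these ratios, so precision rests on how many arrays there were. In the kinase set a gene's 95% interval reached 0.197 (median over genes) to either side of a response and 0.279 to either side of a difference. Arrays with MMS in Cy3, per the labels' dyes and titles, were multiplied by -1. As deposited, opposite-dye arrays of a strain correlated with r from -0.876 to -0.174, so no array had been turned before. Probes were named through the platform annotation and averaged per gene; each member had 1 probe. Of 6269 and 6256 probes, 649 and 647 had no symbol and were left out of the gene tests.

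limma 3.58.1 (lmFit, eBayes) in R 4.3.3 fitted 1 mean per strain to the averages of opposite-dye arrays, apart for the 2 tables, with Benjamini-Hochberg adjustment over all genes of a contrast. Duplicate-correlation fits used statmod 1.5.0. The method was tested on simulated data. Named genes are all members, genes of lists for the pathway and its neighbours, and the 5 genes most like each profile. Members, lists and strain groups were chosen with earlier results of these data known. Replicate numbers did not pair strains in one direction: of 78 strain pairs, 18 had replicate deviations correlated over 0.1 and 24 under -0.1. Against wild type, r ran from -0.462 in ste11 to 0.315 in tel1mec1. Deviations were thus shared between some strains, whereas the main fit treats all replicates as independent. Alternatives changed replicates kept, dyes, unit of replication, blocks, array scaling, probes tested, eBayes settings and strains fitted.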

Additional observations from a re-analysis of the deposited data

Results flagged for a closer look

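Of 144 groups of 4 arrays, 1 per gene and strain, 7 had an array that stood apart from the other 3 by Dixon's criterion; about 1 in 20 groups do so by chance, which is 7.2 here. They were ARG8 in dun1rad53 replicate 1 with MMS in Cy3 (-0.051), CPA1 in crt1 replicate 2 with MMS in Cy5 (0.35), ARG3 in chk1 replicate 2 with MMS in Cy3 (1.33), ARG4 in sut1 replicate 2 with MMS in Cy3 (1.64), and CAR2 in rad53 replicate 2 with MMS in Cy3 (-0.99), in sml1 replicate 1 with MMS in Cy5 (-0.022) and in hap4 replicate 1 with MMS in Cy5 (-0.15). The splits of dun1, chk1dun1 and chk1rad53 were not among them, because there the arrays parted 2 against 2.

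Responses that differed between strains by limma's test were ARG3 (-1.71) and CAR2 (-0.40) in rad53 against wild type, and ARG3 (-2.41), ARG1 (-2.60) and ARG4 (-1.41) in dun1rad53 against wild type. Between deletion strains they were CAR2 in tel1mec1 against mec1 (-0.53), ARG3 (-1.64) and CAR2 (-0.50) in tel1mec1 against tel1, ARG3 in chk1rad53 against chk1 (-1.66), CAR2 in dun1rad53 against dun1 (-0.54) and CAR2 in mec1 against rad53 (0.69). In the pooled comparison they were ARG2 (-0.20), CPA1 (-0.68), ARG3 (-2.03), ARG1 (-1.64), ARG4 (-1.12) and CAR2 (-0.39), and in the factor set CAR1 in hap1 (0.30). Of these 18, 5 kept their call in every alternative tried: ARG3 in dun1rad53 and CPA1, ARG3, ARG1 and ARG4 in the pooled comparison.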

How the results depend on the processing

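Over the alternatives, 43 of 85 called responses and 5 of 18 called differences kept their call in every one. Called responses of the kinase set numbered 55 of 104 and 51 to 64 when 1 replicate was left out. They were 39 with MMS in Cy5 alone, 42 with MMS in Cy3 alone and 62 with arrays as values and the replicate or slide as a random block. Those of the factor set numbered 30 of 40, and 27 to 31 without a replicate. They were 23 with MMS in Cy5 alone, 29 with MMS in Cy3 alone and 32 with arrays as values. The pooled count was 6 of 8 and stayed 6 without any 1 replicate. It was 5 with MMS in Cy5 alone and 5 with arrays scaled to one spread. With MMS in Cy3 alone it was 6, of which 5 were also called in the main fit. Differences from wild type numbered 5 of 96, with 1 to 12 on leaving out a replicate: 1 without wt replicate 2, 2 without either dun1rad53 replicate, 3 without wt replicate 1 or rad53 replicate 2, 10 without chk1rad53 replicate 2, 12 and 9 without dun1 replicate 1 and 2. They were 2 with MMS in Cy5 alone, 10 and 9 with arrays as values and the replicate or slide as a random block, and 9 when only the compared strains were fitted; the cause was not tested. Double against single deletions gave 6 of 72, with 2 to 12: 12 and 10 without dun1 replicate 1 and 2, 3 without mec1 replicate 1, chk1rad53 replicate 1 or either dun1rad53 replicate, 2 without either chk1 or tel1mec1 replicate, and 0 with either dye alone. Factor differences gave 1 of 40, 0 to 1 without a replicate, 0 with either dye alone or with the replicate block, and 2 with robust eBayes. The replicate block gave 53, 29, 5, 5 and 6 calls for the kinase and factor responses, differences from wild type, double deletions and pooled strains. Crossing the numbers of ste11, mec1, rad53 or dun1rad53 in the block, chosen after seeing the data, gave 5, 6, 5 and 4. With 1 dye alone, 4 responses turned: CAR1 (0.11) and CAR2 (0.055) in wild type with MMS in Cy5, CAR1 in hap1 (-0.31) and ARG8 in yap7 (0.29) with MMS in Cy3. Fitting the strains of the comparison alone is the main fit in the factor set and was not run there.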
